A study of Mus musculus with 6 samples.

Results

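Wnt and beta-catenin signalling was followed through 10 genes in mouse embryonic stem cells (mESCs) carrying different alleles of Zbtb24, which encodes a zinc finger protein. The genes were chosen by name as one or more members of each layer of the pathway, with no threshold on their values: the ligand Wnt3, the antagonists Dkk1 and Nkd1, beta-catenin itself (Ctnnb1), the 4 LEF/TCF factors Lef1, Tcf7, Tcf7l1 and Tcf7l2, and the target genes Sp5 and Cdx1. These are 10 of the 43309 genes in the count table, and all 10 were among the 16823 genes that were tested, each of which reached 10 counts in some library. The choice of the 10, and of the gene lists below, was made with earlier results of these data known. RNA was sequenced from 3 control libraries, labelled Zbtb24 wild-type with the alleles 2lox/+, and from 3 libraries labelled knockout with the alleles 1lox/1lox. All 6 came from J1 cells, a line of the 129SV strain, kept in ES cell medium with serum on gelatin and without feeder cells. The controls too carried a loxP-flanked allele. The study describes the mESC lines of each group as separate clones, derived independently, and the labels do not name the clone of each library.

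The canonical Wnt pathway works by sparing beta-catenin from destruction. Without a Wnt signal, a complex of Axin, APC, CK1 and GSK3 marks beta-catenin for breakdown, and LEF/TCF factors on DNA keep target genes low with TLE corepressors. A Wnt ligand bound to Frizzled and LRP5 or LRP6 disables that complex, and beta-catenin then enters the nucleus and turns LEF/TCF targets on. In mESCs the pathway is best known for supporting self-renewal, largely by relieving repression by TCF7L1, and for starting primitive streak genes when cells leave pluripotency.

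The libraries held 25042261 to 28838924 counts each. Zbtb24 itself went against the label: it had 888, 925 and 1039 counts in the labelled knockout libraries, above its 510, 512 and 489 counts in the controls (log2 fold change 0.99 ± 0.05, SE, n = 3 each, edgeR adjusted p = 4.32e-23). Counts per gene do not resolve the loxP-flanked part, so the label could not be checked on it, and the group is called labelled knockout throughout. All 8 markers of ES cells were detected, with summed levels of 4977 to 5067 CPM, counts scaled to the library size with TMM factors, in the control and 5752 to 5808 in the labelled knockout group, and 6 were higher while Zfp42 and Sall4 fell by 0.77 and 0.18 on the log2 scale. Markers of other cells were low against these. They summed to 8.67 to 9.73 and 9.81 to 11.1 CPM for primitive streak, 4.70 to 4.88 and 4.37 to 5.85 for endoderm, 12.9 to 13.4 and 21.1 to 22.1 for neural progenitors and 78.2 to 82.9 and 73.4 to 76.5 for trophoblast. The trophoblast sum was held up by Tfap2c, which rose by 0.41 on the log2 scale, while 4 of the 6 trophoblast markers fell (Krt7, Hand1, Gata3 and Cdx2, with log2 fold changes of -3.15, -3.16, -1.48 and -1.06) and the median of the list was -1.27. The endoderm list had a median of -0.97, with 1 higher and 3 lower, of which Sox17 and Foxa2 passed the count filter only through the control group. Of the neural markers, Neurog2 was at 0 in every labelled knockout library. Fibroblast markers summed to 55.8 to 59.1 CPM in the control and 9.49 to 10.1 in the labelled knockout group, 5 of the 6 were detected and all 5 were lower (Col3a1 and Postn passed the count filter only through the control group, so they had to be), Lum was at 0 in every library, and Postn was at 0 in the labelled knockout libraries only. Markers are counted here as higher or lower at an FDR of at most 0.05. Of all tested genes, 69.5% passed that threshold, 34.4% as higher and 35.2% as lower. In bulk libraries such as these, fewer cells of a type and less RNA per cell cannot be told apart.

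Of the 10 genes, 3 were higher and 5 lower in the labelled knockout group at an FDR of at most 0.05, and 2 were not called. That is 8 of 10, where 69.5% of all tested genes were called (34.4% of all tested genes as higher and 35.2% as lower), so the number of calls was close to the background. With at least a 2-fold change asked for as well, Cdx1 was higher, against 5.21% of all tested genes, and Wnt3 and Dkk1 were lower, against 11.8%. For 8 of the 10 genes the CPM values of the groups did not overlap, as was the case for 71.5% of all tested genes. The median log2 fold change of the 10 was -0.12, and its median size was 0.34 where that of all tested genes was 0.335. By size, the differences were large at Wnt3, Dkk1 and Cdx1, which had few counts. Of these, Dkk1 passed the count filter only through the control group, so it had to be lower. Differences were smaller at beta-catenin, the LEF/TCF factors, the other antagonist Nkd1 (-0.17, not called) and the other target Sp5 (-0.63).

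**Figure D1:**
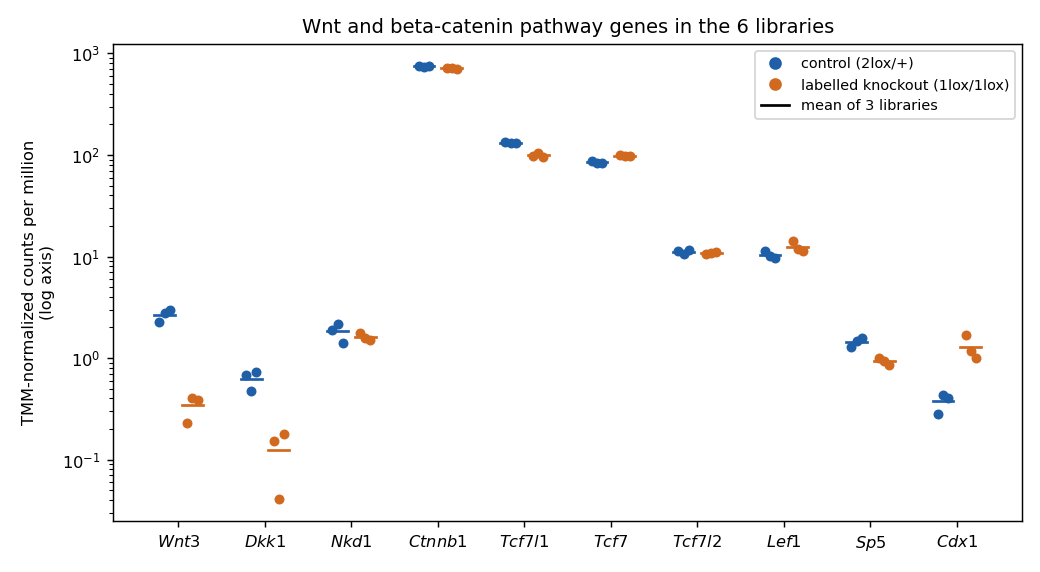
Level of each of the 10 genes in the 6 libraries, as TMM-normalized CPM on a log axis, with a point for each library and a line at each group's mean of 3. Points of the groups are apart for every gene except Nkd1 and Tcf7l2, and the widest gaps are at Wnt3, Dkk1 and Cdx1.

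The promoter sequences of 3 genes are shown because they belong to the genes that fell and whose window held the core of the LEF/TCF motif, a choice made after the values were seen. The search covered CTTTGAT and CTTTGTT on both strands, in the windows from RefSeq on GRCm38.p6 that run from 250 bases before to 50 bases after each annotated start. Of 32851 windows, 3.73% held the former, 5.85% the latter and 9.33% at least 1 of them. For 9 of the 10 genes 15 windows were found, and 4 of these windows, of 4 genes (Sp5, Dkk1, Wnt3 and Tcf7l2), held a match. The sequences below give 250 bases before and 25 after the start, 5′ to 3′ on the strand of the gene, with the motif in capitals. For Sp5, chr2:70474673-70474947 on the plus strand, CTTTGAT lies 104 to 98 bases before the start and CTTTGTT lies on the opposite strand, read as AACAAAG, 222 to 216 bases before it. For Dkk1, chr19:30549472-30549746 on the minus strand, CTTTGTT lies 98 to 92 bases before the start. For Wnt3, chr11:103773925-103774199 on the plus strand, it covers bases 19 to 25 after the start.
Sp5: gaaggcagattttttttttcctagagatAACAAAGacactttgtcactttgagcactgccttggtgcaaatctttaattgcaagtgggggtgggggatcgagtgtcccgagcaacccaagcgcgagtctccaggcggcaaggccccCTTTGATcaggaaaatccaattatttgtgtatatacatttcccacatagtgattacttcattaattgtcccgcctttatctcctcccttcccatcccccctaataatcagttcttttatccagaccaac
Dkk1: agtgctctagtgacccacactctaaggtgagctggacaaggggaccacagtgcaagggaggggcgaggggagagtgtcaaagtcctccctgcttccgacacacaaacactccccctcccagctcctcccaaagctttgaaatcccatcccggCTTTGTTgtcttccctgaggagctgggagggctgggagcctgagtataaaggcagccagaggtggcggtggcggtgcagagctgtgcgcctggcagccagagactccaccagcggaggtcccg
Wnt3: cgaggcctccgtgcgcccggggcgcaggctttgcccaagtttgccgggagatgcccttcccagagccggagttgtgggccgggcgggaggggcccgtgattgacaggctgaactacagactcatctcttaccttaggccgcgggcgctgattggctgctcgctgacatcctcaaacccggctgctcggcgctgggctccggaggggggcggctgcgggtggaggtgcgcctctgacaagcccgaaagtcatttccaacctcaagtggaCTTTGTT
A match is a description of the letters only, and binding was not measured.

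Wnt3, a ligand that acts through beta-catenin and is needed for the primitive streak of the embryo, fell most among the 10. Its counts were 64, 76 and 81 in the 3 controls against 6, 10 and 11 in the labelled knockout libraries. Each labelled knockout library was far under each control library. On the CPM scale the level went from 2.66 ± 0.35 to 0.342 ± 0.097 (SD, n = 3 each). This is a log2 fold change of -2.94 ± 0.235 (SE), or 7.69-fold lower, with a 95% interval of -3.42 to -2.47 and an edgeR adjusted p of 1.22e-15. Wnt3 (ENSMUSG00000000125) lies on chromosome 11 from 103774150 to 103817957 (mm10, plus strand) and has 1 annotated transcript, and the other tested genes within 5 Mb had a median log2 fold change of 0.04 (194 genes).

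The other Wnt ligands were lower for the most part. Of 18 genes, 6 were under the count filter, and 3 of the 12 tested ones passed it only through the control group, so they had to be lower. At an FDR of at most 0.05, 8 were lower, 1 was higher and 3 were not called. Over all tested genes, 69.5% were called, so the share called, higher and lower together, was near the background. As lower, 35.2% of all tested genes were called, and 11.8% as at least 2-fold lower. All 8 of the lower ligands were at least 2-fold lower. Leaving out 1 library at a time gave 7 to 10 calls. The median log2 fold change was -2.04. It was -1.79 with Wnt10b, which had 2, 0 and 2 counts in the labelled knockout libraries, set to 3 counts in each of them. Both medians and the 8 lower genes include Wnt7a, Wnt8a and Wnt10b, the 3 that had to be lower. On the log2 scale, Wnt4 fell by 3.87, Wnt9a fell by 2.60 and Wnt7b fell by 2.34. Wnt3a, which like Wnt3 signals through beta-catenin, had a log2 fold change of -1.31 (it is named here after its value was seen). The ligand called higher was Wnt5b, at 0.66 (edgeR adjusted p = 0.0272, also named after its value was seen). Its groups overlapped, with labelled knockout replicate 3 at 0.8856 CPM just under control replicate 1 at 0.8885 CPM. Summed over the 18 genes, the level was 34.5 to 36.2 CPM in the control and 8.49 to 9.28 CPM in the labelled knockout libraries. Fibroblast markers, 4 of the 6 trophoblast markers and 3 of the 6 endoderm markers were lower in the same libraries, as given above, and their part in the difference of the ligands was not tested.

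**Figure D2:**
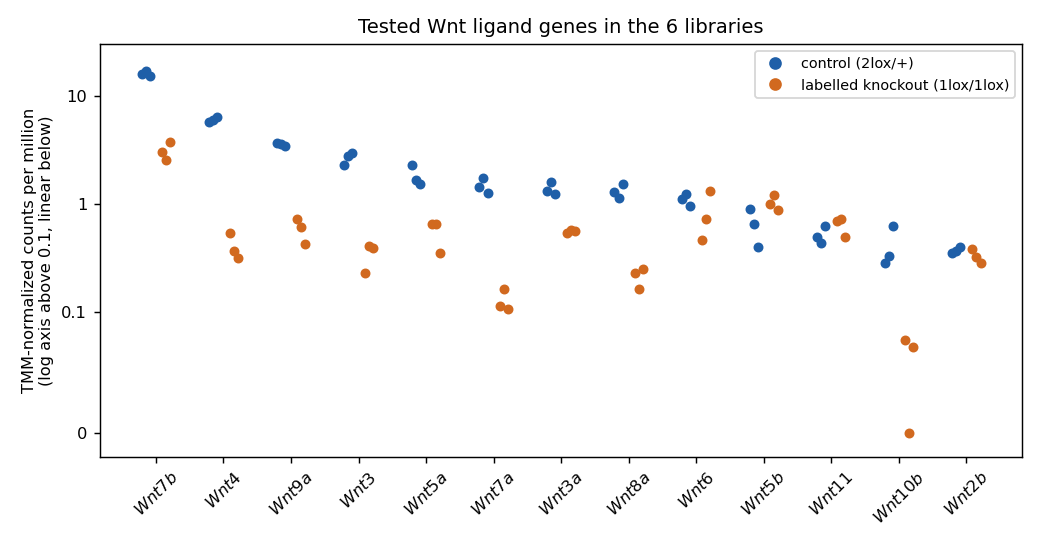
Level of each tested Wnt ligand gene in the 6 libraries, in TMM-normalized CPM, on an axis that is logarithmic above 0.1 and linear below it. Control points are above labelled knockout points for Wnt3 and for 8 other ligands, while the points of Wnt6, Wnt5b, Wnt11 and Wnt2b are mixed or close.

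Both genes that release ligands were called, in opposite directions. Wls, the carrier that takes Wnt proteins to the cell surface, had a log2 fold change of -1.61, and Porcn, the enzyme that adds their lipid, one of 0.64. Among the 17 genes of secretion, receptors and co-receptors, all tested, 6 were higher and 8 lower, with a median of -0.07. Frizzled receptor genes were called in both directions. Fzd8 and Fzd2 fell by 2.09 and 2.07 on the log2 scale, and Fzd1 and Fzd4 fell by 0.96 and 0.92. Fzd5, Fzd3 and Fzd7 rose by 0.89, 0.31 and 0.09, while Fzd6, Fzd9 and Fzd10 were not called. The highest CPM among these Frizzled genes was that of Fzd5, with means of 90.95 in the control and 168.5 in the labelled knockout group. Fzd7 came next, at 87.17 and 92.84 CPM. Of the co-receptor genes, Lrp6 rose by 0.79 and Lrp5 fell by 1.21. Lrp5 and the Frizzled genes other than Fzd8 and Fzd2 are named after their values were seen. The genes within 5 Mb of Lrp6 had a median of 0.48. Of the 9 genes of R-spondins, their LGR receptors and the ubiquitin ligases that remove Frizzleds, 6 were tested, 1 was higher and 4 were lower, of which Lgr5 passed the count filter only through the control group. The share called in both lists stands beside 69.5% of all tested genes. Rspo1 fell by 1.36, Lgr4 fell by 0.21 and Lgr6 rose by 0.58, near the median of 0.52 of the genes within 5 Mb of it. Without labelled knockout replicate 3, or with DESeq2 in place of edgeR, 3 of these genes were called in place of 5.

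Dkk1, a secreted antagonist that occupies LRP5 and LRP6 and is itself switched on by beta-catenin, was low in every library. Its counts were 19, 13 and 20 in the 3 controls against 4, 1 and 5 in the labelled knockout libraries, so it passed the count filter only through the control group and had to be lower there. Every labelled knockout value was under every control value. The level was 0.626 ± 0.135 CPM in the control and 0.124 ± 0.073 CPM in the labelled knockout group (SD, n = 3 each). The log2 fold change was -2.27 ± 0.456 (SE), 4.81-fold lower, with a wide 95% interval of -3.18 to -1.35 and an edgeR adjusted p of 2.28e-05. Dkk1 (ENSMUSG00000024868) lies on chromosome 19 from 30545863 to 30549665 on the minus strand.

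Nkd1, an intracellular antagonist that binds Dishevelled and is a common feedback target, was not called. Its counts were 53, 60 and 39 in the 3 controls against 46, 39 and 43 in the labelled knockout libraries. The groups overlapped, and control replicate 3 at 1.42 CPM was under all 3 labelled knockout libraries, at 1.76, 1.58 and 1.52 CPM, while the other control libraries were above them. The log2 fold change was -0.17 ± 0.178 (SE, edgeR adjusted p = 0.39), with a 95% interval of -0.53 to 0.18. The interval leaves room for a small difference in either direction. Nkd1 (ENSMUSG00000031661) lies on chromosome 8 from 88521354 to 88594884 on the plus strand.

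Of 16 other antagonist genes, 11 were tested, 4 were higher, 4 were lower and 3 were not called, with a median of 0.17, so that the share called was near the 69.5% of all tested genes. Sfrp1, which encodes a decoy that binds Wnts, rose by 1.45 on the log2 scale. Its relative Sfrp2 fell by 1.02, and Dkk3, a divergent member of the Dickkopf family, rose by 0.63. The genes within 5 Mb of Sfrp1 had a median of -0.62, against its own direction. Sost, another secreted antagonist, passed the count filter only through the control group and so had to be lower, with 20, 6 and 10 counts in the controls against 3, 2 and 2 in the labelled knockout libraries.

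Ctnnb1, which encodes beta-catenin, had the highest level of the 10 genes and a difference of a few percent. Its counts were 21330, 20370 and 20772 in the 3 controls against 18658, 17650 and 20038 in the labelled knockout libraries. Scaled to CPM, the values were 758, 741 and 757 against 715, 717 and 710, and the groups did not overlap. The difference passed the test at a log2 fold change of -0.08 ± 0.022 (SE, 95% interval -0.12 to -0.03, edgeR adjusted p = 0.00234), which is 1.05-fold lower. Ctnnb1 (ENSMUSG00000006932) lies on chromosome 9 from 120929216 to 120960507 on the plus strand. Beta-catenin is controlled largely through the stability of its protein, which these counts do not measure.

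Of 18 genes for Dishevelled, the destruction complex and its regulators, 17 were tested, 4 were higher, 8 lower and 5 not called, a share near the 69.5% of all tested genes. Their median log2 fold change was -0.02 and its median size 0.118, where that of all tested genes was 0.335. Axin1 and Gsk3b, of the core complex, fell by 0.13 and 0.12, and Apc, its scaffold, was not called at 0.01 (edgeR adjusted p = 0.68). Apc2, a relative of Apc with far fewer counts, fell by 1.74 (named after its value was seen). Dvl1, which relays the signal from Frizzled, fell by 0.84. Tnks, which marks Axin for breakdown, fell by 0.49, and the genes within 5 Mb of it had a median of -0.66. Frat2, a GSK3-binding protein, rose by 0.34.

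The 4 LEF/TCF genes encode the DNA-binding partners of beta-catenin. Tcf7l1 acts mainly as a repressor in mESCs, whereas Tcf7 and Lef1 are more often activators, and Tcf7l2 can do both. Since these genes differ in length, their levels were compared as FPKM, counts scaled by library size and by the kilobases of annotated exon. In the control group Tcf7l1 and Tcf7 were the most abundant, at 33.6 and 32.3 FPKM with overlapping ranges, far above Tcf7l2 at 1.27 and Lef1 at 1.18 FPKM, which also overlapped. In the labelled knockout group Tcf7 was at 37.5, Tcf7l1 at 25.4, Lef1 at 1.42 and Tcf7l2 at 1.23 FPKM, with no overlap between neighbours in that order.

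Tcf7l1 was lower in every labelled knockout library. Its levels were 134, 130 and 132 CPM in the 3 controls against 98.6, 105 and 96.1 CPM in the labelled knockout libraries. The groups were apart by many times their SD, of 2.03 and 4.38 CPM. The log2 fold change was -0.40 ± 0.0302 (SE, edgeR adjusted p = 1.13e-16), 1.32-fold lower. Tcf7l1 (ENSMUSG00000055799) lies on chromosome 6 from 72626378 to 72789254 on the minus strand. The 39 tested genes within 5 Mb had a median of -0.13.

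Tcf7 was higher in every labelled knockout library. Its levels were 87.7, 82.7 and 83.6 CPM in the 3 controls against 99.9, 96.8 and 98.5 CPM in the labelled knockout libraries. The lowest labelled knockout value was above the highest control value. Tcf7 thus had a log2 fold change of 0.22 ± 0.0309 (SE, edgeR adjusted p = 2.58e-08), 1.16-fold higher. Tcf7 (ENSMUSG00000000782) lies on chromosome 11 from 52252371 to 52283014 on the minus strand.

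Lef1 was called higher, but this call depended on 1 library. Its levels were 11.3, 10.1 and 9.65 CPM in the 3 controls against 14.2, 11.9 and 11.4 CPM in the labelled knockout libraries. Labelled knockout replicate 1 stood above the rest, and replicate 3 was barely above control replicate 1. The log2 fold change was 0.27 ± 0.0773 (SE, edgeR adjusted p = 0.00184), and without labelled knockout replicate 1 it was 0.17, with an adjusted p of 0.0625. The 42 tested genes within 5 Mb of Lef1 had a median of 0.21, near the value of Lef1 itself. Lef1 (ENSMUSG00000027985) lies on chromosome 3 from 131110471 to 131224356 on the plus strand.

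Tcf7l2 was not called. Its levels were 11.4, 10.5 and 11.5 CPM in the 3 controls against 10.6, 10.7 and 11.1 CPM in the labelled knockout libraries. The labelled knockout values lay within the range of the control values. The log2 fold change was -0.04 ± 0.0715 (SE, 95% interval -0.19 to 0.10, edgeR adjusted p = 0.614). Tcf7l2 (ENSMUSG00000024985) lies on chromosome 19 from 55741820 to 55933654 on the plus strand and has 22 annotated transcripts, which counts per gene do not tell apart.

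As a share of the summed FPKM of the 4 genes, Tcf7l1 and Tcf7 traded places. Tcf7l1 held 49.2% ± 0.446 of the sum in the control and 38.8% ± 1.34 in the labelled knockout group (SD, n = 3 each), and Tcf7 held 47.2% ± 0.354 and 57.2% ± 1.22. Lef1 held 1.72% ± 0.104 and 2.17% ± 0.239, and Tcf7l2 1.86% ± 0.0697 and 1.88% ± 0.0718. The sum itself was 67.0 to 70.1 FPKM in the control and 64.6 to 66.1 FPKM in the labelled knockout libraries. The exact permutation test, two-sided, gave p = 0.1 for each of Tcf7l1, Tcf7 and Lef1 (adjusted over the 4 shares, 0.133), which is the smallest value that 3 libraries against 3 allow, and p = 0.7 for Tcf7l2. With the longest transcript in place of all exons as the length, Tcf7l1 went from 52.0% to 41.5% and Tcf7 from 41.1% to 50.5%.

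**Figure D3:**
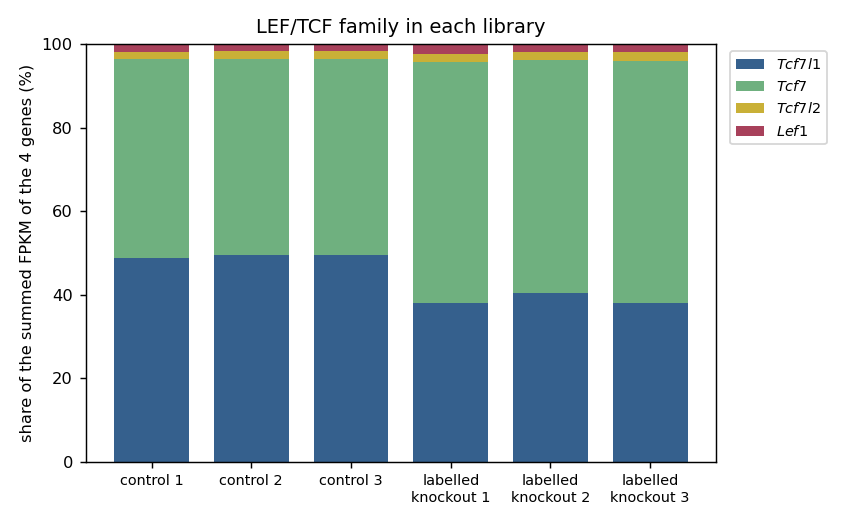
Share of each LEF/TCF gene in the summed FPKM of the 4 genes, in percent, with a bar for each library. Tcf7l1 holds the larger share in the 3 control libraries and Tcf7 in the 3 labelled knockout libraries, while Tcf7l2 and Lef1 are thin bands at the top of every bar.

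Of 14 genes for nuclear cofactors of beta-catenin and for TLE corepressors, 5 were higher and 5 lower, with a median of 0.03, so that the share called was near the 69.5% of all tested genes. Bcl9l, which links beta-catenin to Pygopus, fell by 1.17 on the log2 scale, while its relative Bcl9 rose by 0.71. Tle4, a Groucho-type corepressor, fell by 0.41.

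Sp5, a zinc finger factor and direct beta-catenin target that damps the response, was lower in the labelled knockout group. Its counts were 36, 40 and 43 in the 3 controls against 26, 23 and 24 in the labelled knockout libraries. The groups did not overlap. The level was 1.43 ± 0.145 CPM and 0.927 ± 0.073 CPM (SD, n = 3 each), a log2 fold change of -0.63 ± 0.211 (SE, edgeR adjusted p = 0.00758), and with DESeq2 the adjusted p was 0.055. Sp5 (ENSMUSG00000075304) lies on chromosome 2 from 70474923 to 70477729 on the plus strand.

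Axin2, the feedback gene most often read as a measure of beta-catenin activity, had counts of 485, 540 and 481 in the 3 controls against 79, 83 and 93 in the labelled knockout libraries. Its level went from 18.1 ± 1.32 to 3.23 ± 0.182 CPM (SD, n = 3 each), a log2 fold change of -2.49 (edgeR adjusted p = 1.93e-29). Among 18 target and feedback genes other than the 10, 17 were tested, 3 were higher and 11 lower, with a median of -0.60. The background over all tested genes was 69.5% called, 35.2% as lower. The count filter was passed only through the control group by 3 of the 17. These were Lgr5, Wnt8a and Fgf8, which had to be lower and are part of that median. DESeq2 called 9 of the 17 in place of 14, and 10326 of all 16823 tested genes in place of 11697. Myc, a growth regulator, fell by 0.68, and Ascl2, an intestinal stem cell factor, fell by 0.60. The 3 higher genes were Mixl1, Tnfrsf19 and Notum, at 1.18, 0.39 and 0.17 (named after their values were seen). Lgr5, Notum, Znrf3, Rnf43, Dkk4 and Wnt8a of this list also belong to pathway lists above and are no separate evidence. The same holds for Cdx2, a trophoblast marker above, and for T and Mixl1, which are primitive streak markers.

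Cdx1, a homeobox factor of posterior patterning and a known Wnt target, was higher, as were 3 of the 17 other target genes tested. Its counts were 8, 12 and 11 in the 3 controls against 44, 29 and 28 in the labelled knockout libraries. Every labelled knockout value was above every control value, and labelled knockout replicate 1 was the highest. The level rose from 0.374 ± 0.0797 to 1.29 ± 0.359 CPM (SD, n = 3 each), a log2 fold change of 1.77 ± 0.288 (SE, 95% interval 1.19 to 2.34, edgeR adjusted p = 4.96e-07) or 3.40-fold. Leaving out 1 library at a time gave 1.52 to 1.94. Cdx1 (ENSMUSG00000024619) has 1 annotated transcript, on chromosome 18 from 61018862 to 61036199 on the minus strand, and the 63 tested genes within 5 Mb had a median of -0.12.

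**Figure D4:**
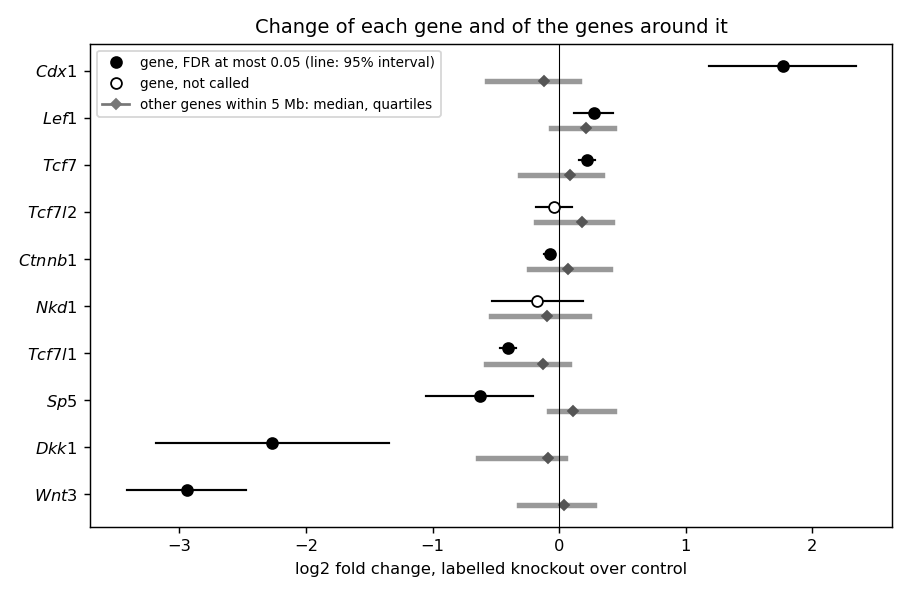
Log2 fold change, labelled knockout over control, of each of the 10 genes with its 95% interval, filled where the FDR was at most 0.05, and below each the median and quartiles of the other tested genes within 5 Mb. Wnt3, Dkk1 and Cdx1 lie far outside the quartiles of their neighbours, while Lef1 at 0.27 lies close to a neighbour median of 0.21.

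Of 6 pluripotency genes known to be held down by TCF7L1 in mESCs, 5 were higher and 1 was lower. Of all tested genes, 34.4% were called higher and 35.2% lower, and 5.21% were called at least 2-fold higher. Tfcp2l1 rose by 1.56, Tbx3 by 1.45, Nr5a2 by 1.44, Esrrb by 1.16 and Nanog by 1.13 on the log2 scale, while Klf2 fell by 0.17. All 6 are transcription factors of the naive pluripotency network. Some of them lie in stretches whose other genes were higher too: the median within 5 Mb was 0.65 for Tfcp2l1, 0.53 for Nr5a2 and 0.56 for Nanog. That median was 0.05 for Tbx3, 0.001 for Esrrb and -0.18 for Klf2, the last near the value of Klf2 itself. Nanog is also 1 of the ES cell markers, whose sum was higher in the labelled knockout group as given above. Whether these genes followed Tcf7l1 was not tested.

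**Figure D5:**
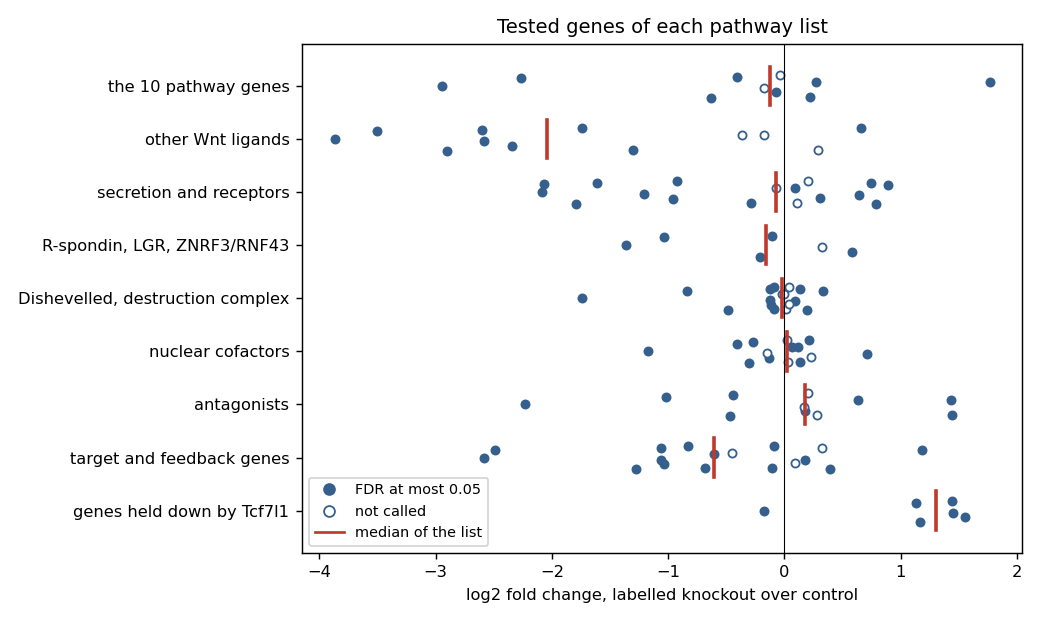
Log2 fold change, labelled knockout over control, of every tested gene of each pathway list, filled where the FDR was at most 0.05, with a bar at the list's median. The other Wnt ligands have a median of -2.04 and the target and feedback genes one of -0.60, the genes held down by Tcf7l1 one of 1.30, and the other lists lie near 0. Among these, 3 ligands and 3 target genes passed the count filter only through the control group and had to be lower.

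Per length, the levels of the 10 genes spanned from 145 FPKM for Ctnnb1 down to 0.214 FPKM for Cdx1 in the control group. The order below the LEF/TCF genes was Wnt3 at 0.866, Sp5 at 0.683, Nkd1 at 0.401, Dkk1 at 0.258 and Cdx1 at 0.214 FPKM, in which Wnt3 and Sp5 overlapped, as did Dkk1 and Cdx1. In the labelled knockout group the order was Cdx1 at 0.734, Sp5 at 0.441, Nkd1 at 0.356, Wnt3 at 0.111 and Dkk1 at 0.0509 FPKM, and no neighbours overlapped. Cdx1 thus stood last of the 10 in the control and above the other low genes in the labelled knockout group, while Wnt3 moved down to the place before the last.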

How the data were processed

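RNA from mESCs was sequenced as 6 TruSeq Stranded mRNA libraries, and the labels do not name the clone of each. The deposited values are raw counts of fragments per gene, made by the authors on mm10 with GENCODE Release M4 genes, using the strand and leaving out fragments with several locations or genes. The submitters' processing notes name CASAVA 1.8.2, Bowtie2 2.1.0, TopHat2 2.0.10 and HTSeq 0.6.1. Library totals were 25042261 to 28838924 counts, and this depth limits genes with few counts most.

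Symbols, coordinates and exon lengths were taken from GENCODE M21 on mm10 by Ensembl identifier (42425 of 43309 genes matched). FPKM was computed from the counts and the summed length of all annotated exons of that release, so it can differ from values on the M4 models. Genes that reached 10 counts in some library were tested in R 4.3.3 with edgeR 4.0.16 (TMM, glmQLFit, glmQLFTest, no covariate), with Benjamini-Hochberg adjustment over the 16823 genes and an FDR of at most 0.05. The fit was tested on simulated data first. A gene was taken to be at the floor where no library of a group had more than 3 counts, and medians are also given with such genes set to that floor, which covers counting error only. The p-values measure only the spread between these libraries (common dispersion 0.000402), and how much of it is between clones was not tested.

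The 10 genes and all gene lists were chosen with earlier results of these data known. Named were the 10 genes, Zbtb24, Axin2, Axin1, Gsk3b, Apc, Lrp6, Porcn and Wls, the 6 genes held down by Tcf7l1, and from every other list the 3 genes with the largest log2 fold change in size among those called with a mean of at least 50 counts. Lists are described by counts and medians, with no set test. Alternatives were DESeq2 1.42.0, edgeR's exact test, other scalings and count filters, a replicate block, another transcript length, another distance to neighbours and leaving out each library. Between libraries of a group, the median squared difference over genes was 1.12 to 1.6 times that of sampling noise, and each was counted as 1 sample as the labels list it. The labels give no batch. Promoter sequences are from RefSeq on GRCm38.p6. The values of 1 marker gene are not reported here.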

Additional observations from a re-analysis of the deposited data

How the results depend on the processing

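Most values kept their direction and their side of the threshold, in 825 combinations of result and alternative, while 5 moved, 4 reversed and 2 lost their call. With DESeq2, Sp5 had the same direction at -0.63 but an adjusted p of 0.055, 9 target genes were called in place of 14, and 3 genes of the R-spondin list in place of 5. Leaving out each library in turn gave log2 fold changes of 0.17 to 0.34 for Lef1, whose adjusted p was 0.0625 without labelled knockout replicate 1, and 3 to 5 calls in the R-spondin list, the lowest without labelled knockout replicate 3. The 10 genes gave 7 to 8 calls. Apc, not called in any setting, ranged from -0.00401 (without control replicate 2) to 0.0243 over the libraries left out and was -0.0351 with library totals as the only scaling. With the longest transcript as length, the difference in share was 0.94 percentage points for Lef1 (0.446 with all exons, 0.309 to 0.522 over the libraries left out) and 0.0948 points for Tcf7l2 (0.0216 with all exons, -0.0196 to 0.0564 over the libraries left out, below 0 without control replicate 2 and without labelled knockout replicate 3). The replicate numbers did not pair the samples: same-numbered libraries had correlations of deviations of 0.0136, 0.0744 and 0.0151. A fit with the replicate number as a block made 11801 calls over all genes in place of 11697, and under the replicate block no call named here changed, with Wnt3 at -2.95 and Cdx1 at 1.77. Low counts, as for Wnt3, Dkk1, Nkd1, Sp5 and Cdx1, limit the precision of those genes.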

Other observations

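Planar cell polarity genes, which orient cells within a sheet and share Frizzled and Dishevelled with the beta-catenin branch, were called in both directions. Of 12, 11 were tested, 4 were higher, 5 lower and 2 not called, with a median log2 fold change of 0.05. These counts stand beside 69.5% of all tested genes called, 34.4% as higher and 35.2% as lower. Prickle1, which encodes a cytoplasmic polarity factor, fell by 1.68 on the log2 scale, while its relative Prickle2 rose by 0.89. Ptk7, a receptor-like protein of the same branch, fell by 0.98.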
